A study of Mus musculus with 8 samples.

Results

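The HoxB cluster genes, Hoxb1 to Hoxb9, were followed in MPPs, the multipotent progenitors of mouse bone marrow, as 9 of the 37980 gene rows measured by RNA sequencing. They were chosen by symbol, as the neighbouring protein-coding Hox genes of 1 chromosomal cluster. No value entered that rule, but earlier results of these data were known when the choice was made. NA mice carried the NUP98-HOXA10hd fusion, a part of the nucleoporin NUP98 joined to the homeodomain of HOXA10, as an allele written NA LSL/+; Vav-Cre. The fusion is read from the Rosa26 locus once Cre, which the Vav promoter drives in blood cells, has removed a stop cassette. WT mice were controls without the fusion, for which the sources used here do not state whether they carried Vav-Cre, and both groups were of the C57BL/6 strain. Ages of the mice behind these libraries are not given in the sources used here. Each of the 4 NA and 4 WT libraries held the amplified polyA cDNA of 1000 cells, sorted as Lin-CD48-ckit+Sca1+CD135+CD150-. The labels call the libraries aliquots and do not say that each came from its own animal, so p-values here measure the spread between these libraries, which may be technical. The libraries are called NA1 to NA4 and WT1 to WT4.

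Hox genes encode transcription factors that bind DNA through a homeodomain, usually together with PBX and MEIS cofactors. They lie in 4 clusters, HoxA to HoxD, and genes with the same number in different clusters are paralogues that bind closely related sites. In blood formation HoxA and HoxB genes are active in stem and progenitor cells and fall silent as cells mature. Hoxb4 is known for expanding stem cells when it is supplied in excess, Hoxb5 for marking long-term stem cells of the mouse, and the fusion itself carries a homeodomain of the HoxA series.

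The members occupied 96800 bases of the plus strand of chromosome 11 (mm10, the build named in the submitters' processing notes, with gene models of GENCODE M21). From left to right these were Hoxb9 at chr11:96271457-96276595, Hoxb8 at chr11:96281905-96285315, Hoxb7 at chr11:96286623-96290162 and Hoxb6 at chr11:96292476-96301569. They were followed by Hoxb5 at chr11:96303336-96306121, Hoxb4 at chr11:96318267-96321638, Hoxb3 at chr11:96323326-96347930, Hoxb2 at chr11:96350525-96354012 and Hoxb1 at chr11:96365752-96368256. An antisense transcript crossed the cluster at each of 2 places, Hoxb5os at chr11:96291024-96306910 and Hoxb3os at chr11:96343072-96354691. Exons of Hoxb3os covered 52.9% of the exonic bases of Hoxb3 and 27.3% of those of Hoxb2, and exons of Hoxb5os covered 3.59% of those of Hoxb5. Whether counting used the strand is not given in the sources used here, so in these stretches reads of a gene and of its antisense partner cannot be told apart. Hoxb4 shared no exonic base with another gene in GENCODE M21. The annotation with which the authors counted is not given in the sources used here, so this holds for these gene models alone.

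Promoter sequence from RefSeq (GRCm38.p6, plus strand) was at hand for 3 of the 9 members, which happened to be the member that passed the test below, Hoxb4, and 2 members with almost no reads, Hoxb8 and Hoxb1. The 250 bases before the start of each are shown, so that the start of the member with reads can be set beside starts without them. Capitals mark CCAAT, the site of the factor NF-Y, or ATTGG, the same site on the other strand.
Hoxb4 promoter, chr11:96318017-96318266: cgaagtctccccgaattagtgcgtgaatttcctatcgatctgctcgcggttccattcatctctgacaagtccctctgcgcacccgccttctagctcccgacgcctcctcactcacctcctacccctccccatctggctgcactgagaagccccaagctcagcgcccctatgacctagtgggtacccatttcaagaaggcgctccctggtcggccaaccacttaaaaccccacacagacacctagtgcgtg
Hoxb8 promoter, chr11:96281655-96281904: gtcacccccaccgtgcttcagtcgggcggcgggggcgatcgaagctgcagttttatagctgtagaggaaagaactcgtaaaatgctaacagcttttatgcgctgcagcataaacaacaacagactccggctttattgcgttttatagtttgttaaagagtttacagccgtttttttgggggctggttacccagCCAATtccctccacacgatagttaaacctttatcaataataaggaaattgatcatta
Hoxb1 promoter, chr11:96365508-96365757: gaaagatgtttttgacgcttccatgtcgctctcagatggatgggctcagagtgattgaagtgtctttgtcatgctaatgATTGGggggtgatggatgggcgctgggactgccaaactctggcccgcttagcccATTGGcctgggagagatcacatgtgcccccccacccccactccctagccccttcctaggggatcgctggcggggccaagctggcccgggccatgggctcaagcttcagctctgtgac
In the 300-base windows, which also hold 50 bases after the start, 4 motifs were searched on both strands: CCAAT, the USF E-box CACGTG, the PBX-HOX site TGATTNAT and the DR5 repeat of retinoic acid receptors. Hoxb8 held 1 CCAAT, at -57 from the start, and Hoxb1 held 2 on the opposite strand, at -171 and -117. No match to the other motifs was found in these windows, and none of the 4 in that of Hoxb4. Of 32851 RefSeq promoters of the same length, 37.4% held CCAAT, 7.15% CACGTG, 3.22% TGATTNAT and 0.00913% the DR5 repeat. These are descriptions of the windows and say nothing of binding.

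Values are normalised counts: estimated reads per gene that the authors had divided by 1 factor for each library, so that 1 read was worth between 0.888 and 1.18. Depth was 3887847 to 4916987 estimated reads in the NA libraries and 3876893 to 4890086 in the WT libraries. All 9 members together held only 21 to 85 estimated reads in a library, so each value below rests on few reads. The test was limma on log2(normalised count + 1), over the 11451 genes that reached 10 normalised counts in 4 or more libraries, with Benjamini-Hochberg adjustment and a threshold of 0.05. Of these genes 17.9% passed the test in either direction, 10.1% as higher in NA MPPs and 7.87% as lower. The fourth library of each group lay nearest to a weighted sum of the other 3 libraries of its group, at a median distance of 7.67% per gene for NA4 and 4.88% for WT4, against 7.37% to 13.1% for the others. The distance of WT4 was smaller than counting noise alone would give. Results are therefore also given without NA4 and WT4, where 3.31% of the genes tested were called higher in NA MPPs. Xist was at 0.940 to 2.80 normalised counts in the NA libraries and at 869 to 1285 in the WT libraries, and the Y-linked gene Eif2s3y was at 516 to 666 in the NA libraries and at most 0.888 in the WT libraries. The labels give no sex, and sex and genotype cannot be told apart in any comparison here.

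The members fell into 3 groups by level. Hoxb2, Hoxb4 and Hoxb5, the 3 that entered the test, had mean values between 13.6 and 25.9 normalised counts over the 8 libraries. Hoxb1, Hoxb6 and Hoxb7 had a few reads in some libraries and did not enter. Hoxb3, Hoxb8 and Hoxb9 were listed at 0 in all 8 libraries. Of the 3 tested members, 1, Hoxb4, passed the test, as higher in NA MPPs, beside 10.1% of all tested genes. Hoxb4 had entered the test through its 4 NA values alone, so that count is no measure of how the cluster moved.

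**Figure D1:**
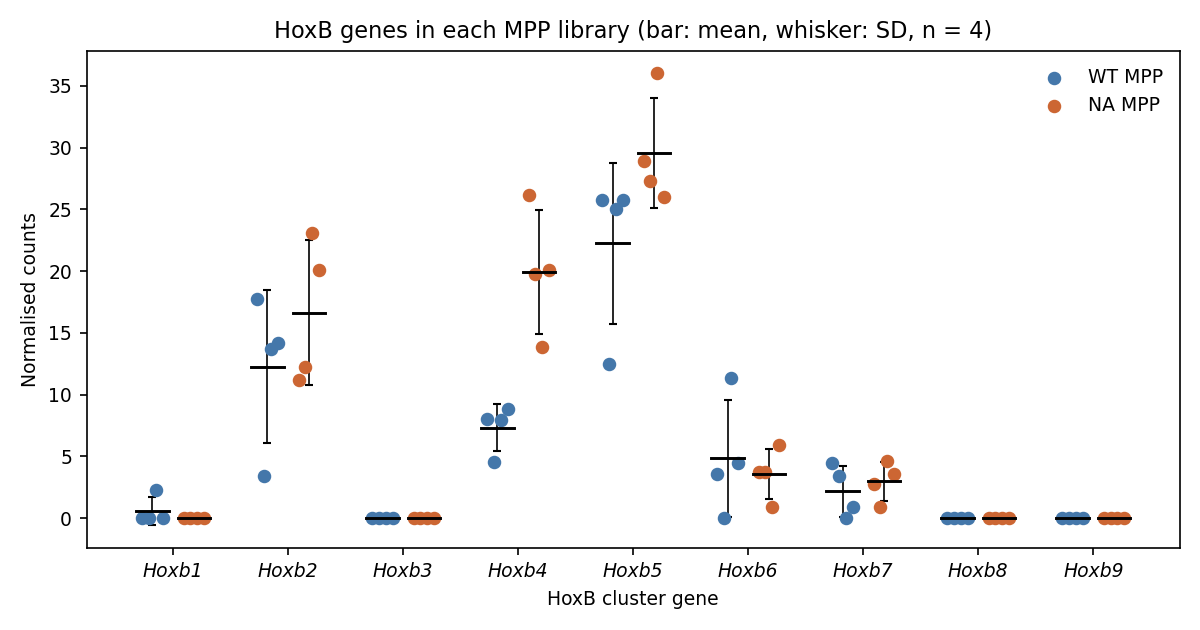
Normalised counts (vertical axis) of the 9 HoxB genes (horizontal axis) in each of the 4 WT (blue) and 4 NA (orange) libraries, with the mean as a bar and the SD as a whisker. The Hoxb4 points of the NA libraries lie at 13.8 to 26.1, above those of the WT libraries at 4.53 to 8.88, while Hoxb2 points overlap and Hoxb3, Hoxb8 and Hoxb9 stay at 0.

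Hoxb4 was the member that differed most. It measured 26.1, 19.7, 13.8 and 20.1 normalised counts in NA1 to NA4, and 7.99, 4.53, 7.97 and 8.88 in WT1 to WT4. Every NA library was above every WT library, as for 11.5% of all tested genes; 22.0% of them were apart in either direction. The mean was 20.0 ± 5.02 in NA MPPs and 7.34 ± 1.92 in WT MPPs (errors are SD, n = 4), a ratio of 2.72. On the log2 scale the difference was 1.33 with a standard error of 0.44, a 95% interval of 0.39 to 2.27 and a limma adjusted p of 0.0495. The reads behind it were 81 over the 4 NA libraries and 30 over the 4 WT libraries. The adjusted p lay at the threshold, and 16 of the 19 other settings tried took it above 0.05 with the direction kept. Leaving out any 1 library other than NA3 did so, and without NA4 and WT4 the difference was 1.41 with an adjusted p of 0.241.

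Hoxb5 had the highest values of the members. It measured 28.9, 27.3, 36.0 and 26.0 normalised counts in NA1 to NA4, and 25.7, 12.5, 25.0 and 25.7 in WT1 to WT4. The groups did not overlap, but the gap between NA4 and the highest WT library was smaller than the worth of 1 read. The mean was 29.5 ± 4.47 in NA MPPs and 22.2 ± 6.54 in WT MPPs (errors are SD, n = 4). The log2 difference of 0.44 had a standard error of 0.34 and a 95% interval of -0.29 to 1.16, and it did not pass (limma adjusted p = 0.395). Much of it rested on WT2: without that library the log2 difference was 0.19.

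Hoxb2, which lies nearest to the 3′ end of the cluster among the members with reads in every library, spread widely within both groups. It measured 11.2, 12.2, 23.1 and 20.1 normalised counts in NA1 to NA4, and 17.8, 3.40, 13.7 and 14.2 in WT1 to WT4. The groups overlapped, and WT2 was again the lowest library. The mean was 16.6 ± 5.84 in NA MPPs and 12.3 ± 6.18 in WT MPPs (errors are SD, n = 4). The log2 difference was 0.54 with a standard error of 0.52, a 95% interval of -0.58 to 1.65 and a limma adjusted p of 0.508, and it was 0.07 without WT2. The intervals of Hoxb2 and Hoxb5 held both no change and a rise as large as that estimated for Hoxb4, or nearly so, and neither gene was shown to be unchanged.

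Hoxb6 and Hoxb7, which lie side by side left of Hoxb5, were near the limit of detection. Hoxb6 measured 3.73, 3.76, 0.923 and 5.91 normalised counts in NA1 to NA4, and 3.55, 0, 11.4 and 4.44 in WT1 to WT4. Hoxb7 measured 2.80, 0.940, 4.62 and 3.54 in NA1 to NA4, and 4.44, 3.40, 0 and 0.888 in WT1 to WT4. For both genes the groups overlapped, and the sums over a group were 14 reads in NA and 19 in WT MPPs for Hoxb6, and 12 and 9 for Hoxb7. Hoxb1, the last gene of the cluster, was listed at 2.28 normalised counts, or 2 reads, in WT3 and at 0 in the other 7 libraries. In a limma fit without the filter on low values these 3 genes did not pass.

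Hoxb3, Hoxb8 and Hoxb9 were listed at 0 in every library. A count of 0 over the 4 libraries of a group allows a level of up to 0.161 RPM in NA and 0.171 RPM in WT MPPs, which is 3 reads over the summed depth of the group and covers counting error alone. For Hoxb8 and Hoxb9 no difference was detectable at this depth. For Hoxb3 the 0 has a further limit, since 52.9% of its exonic bases are shared with Hoxb3os, to which shared reads could have been assigned. Hoxb13, which lies apart from the other members to the left of Hoxb9, was also listed at 0 throughout.

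Both antisense transcripts of the cluster had reads in every library. Hoxb3os measured 44.8, 94.0, 57.2 and 70.9 normalised counts in NA1 to NA4, and 47.9, 61.2, 51.2 and 70.1 in WT1 to WT4. Hoxb5os measured 14.9, 20.7, 13.8 and 27.2 in NA1 to NA4, and 15.1, 20.4, 15.9 and 12.4 in WT1 to WT4. The groups overlapped for both. The log2 difference was 0.17 for Hoxb3os (95% interval -0.38 to 0.72, limma adjusted p = 0.679) and 0.22 for Hoxb5os (95% interval -0.60 to 1.04, limma adjusted p = 0.726). The other 5 listed transcripts of the cluster that the table holds, among them the miRNA genes Mir10a and Mir196a-1, were at 0, and polyA libraries do not measure mature miRNAs.

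Levels of different genes were set side by side per kilobase of the longest annotated transcript. In NA MPPs Hoxb5 came first, at 10.6 ± 1.61 normalised counts per kilobase, before Hoxb4 at 7.78 ± 1.96, Hoxb2 at 5.31 ± 1.86, Hoxb7 at 2.30 ± 1.20 and Hoxb6 at 1.82 ± 1.04 (errors are SD, n = 4). In WT MPPs the order was Hoxb5 at 7.99 ± 2.35, Hoxb2 at 3.91 ± 1.97, Hoxb4 at 2.86 ± 0.749, Hoxb6 at 2.47 ± 2.43 and Hoxb7 at 1.69 ± 1.61. Neighbours in both orders overlapped across libraries. In NA MPPs every Hoxb5 value per kilobase, from 9.33, was above every value of Hoxb6 and Hoxb7, up to 3.58, while in WT MPPs the lowest Hoxb5 value, 4.47, was under the highest Hoxb6 value, 5.80. On the same scale the antisense transcripts stood above every member in the mean, Hoxb5os at 32.1 ± 10.3 and Hoxb3os at 28.8 ± 9.10 in NA MPPs, and at 26.8 ± 5.55 and 24.9 ± 4.35 in WT MPPs. The order after Hoxb5 depended on the transcript used. Per kilobase of the shortest annotated transcript, the means in NA MPPs were 15.6 for Hoxb5, 10.2 for Hoxb2, 8.04 for Hoxb7, 7.78 for Hoxb4 and 2.71 for Hoxb6. The WT means were then 11.7 for Hoxb5, 7.53 for Hoxb2, 5.89 for Hoxb7, 3.67 for Hoxb6 and 2.86 for Hoxb4, so that Hoxb7 stood before Hoxb4 in both groups.

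**Figure D2:**
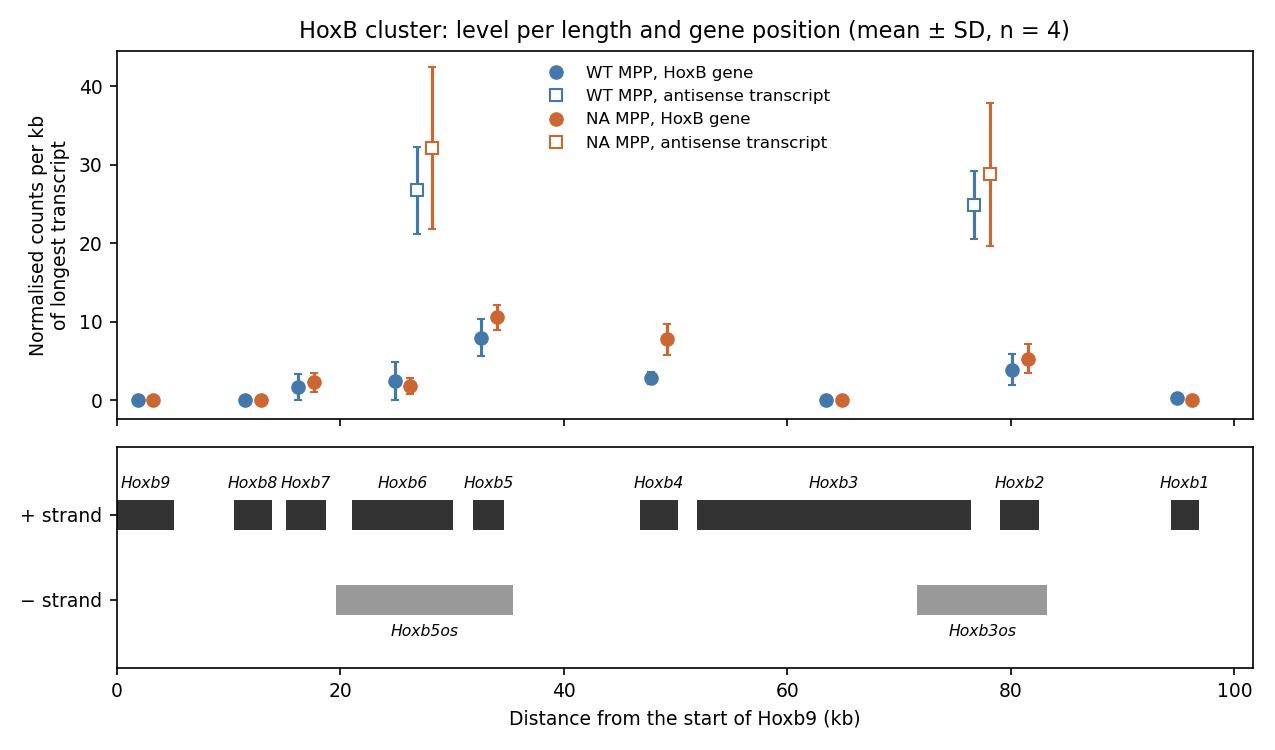
Upper panel: normalised counts per kilobase of longest transcript (vertical axis) against distance from the start of Hoxb9 in kilobases (horizontal axis), as mean ± SD of 4 libraries for WT (blue) and NA (orange) MPPs, with filled points for HoxB genes and open squares for antisense transcripts; points are shifted sideways to stay apart. Lower panel: the genes on their strands; on this length the means of the HoxB genes are highest at Hoxb5, Hoxb4 and Hoxb2 (with the shortest transcripts at Hoxb5, Hoxb2 and Hoxb7), levels are 0 at Hoxb9, Hoxb8 and Hoxb3, and the antisense transcripts Hoxb5os and Hoxb3os stand above them all.

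The HoxA cluster supplied nearly all Hox transcripts of these cells. Summed per kilobase of longest transcript, the 9 HoxB members reached 28.2, 24.0, 29.7 and 29.3 normalised counts in NA1 to NA4, and 23.3, 9.95, 23.3 and 20.2 in WT1 to WT4. The groups did not overlap in this sum, which Hoxb4 and Hoxb5 carried for the most part in NA MPPs. With the shortest transcripts they overlapped, since WT1 at 42.3 and WT3 at 36.3 stood above NA2. The sum over 9 HoxA genes was 1617 ± 58.8 in NA and 912 ± 25.4 in WT MPPs (errors are SD, n = 4). HoxB genes therefore made up 1.69% ± 0.123 of the HoxA and HoxB total in NA MPPs and 2.05% ± 0.659 in WT MPPs (errors are SD, n = 4), shares that overlapped, since WT2 was lowest at 1.11%. With the shortest transcripts the share was 0.582% ± 0.0994 in NA against 0.694% ± 0.205 in WT MPPs. Hoxa9 alone, the most abundant Hox gene, stood at 801 ± 72.7 per kilobase in NA and 499 ± 25.9 in WT MPPs.

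Of the 8 HoxA genes tested, 6 rose and 2 did not pass, with a median log2 difference of 0.69 beside -0.01 over all genes tested. Of all genes tested, 10.1% were called higher in NA MPPs. Hoxa5, the paralogue of Hoxb5, rose from 185 ± 35.1 to 570 ± 80.0 normalised counts (errors are SD, n = 4), a log2 difference of 1.62 (limma adjusted p = 8.87e-06). Hoxa4, the paralogue of Hoxb4, measured 21.8 ± 7.88 in WT and 23.0 ± 3.10 in NA MPPs, a log2 difference of 0.13 with a 95% interval of -0.63 to 0.88 (limma adjusted p = 0.840). Hoxa2, the paralogue of Hoxb2, measured 48.2 ± 15.9 in WT and 69.3 ± 22.5 in NA MPPs, a log2 difference of 0.52 (limma adjusted p = 0.233). Hoxa10 rose by a log2 difference of 1.21 (limma adjusted p = 2.57e-05), but reads of the HOXA10 part of the fusion cannot be separated from it, and Nup98 measured 72.2 ± 12.1 in WT and 85.0 ± 10.9 in NA MPPs. The HoxC genes summed to at most 2.80 normalised counts in a library and the 8 HoxD genes in the table were at 0. Without NA4 and WT4, 3 HoxA genes passed the test in place of 6.

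**Figure D3:**
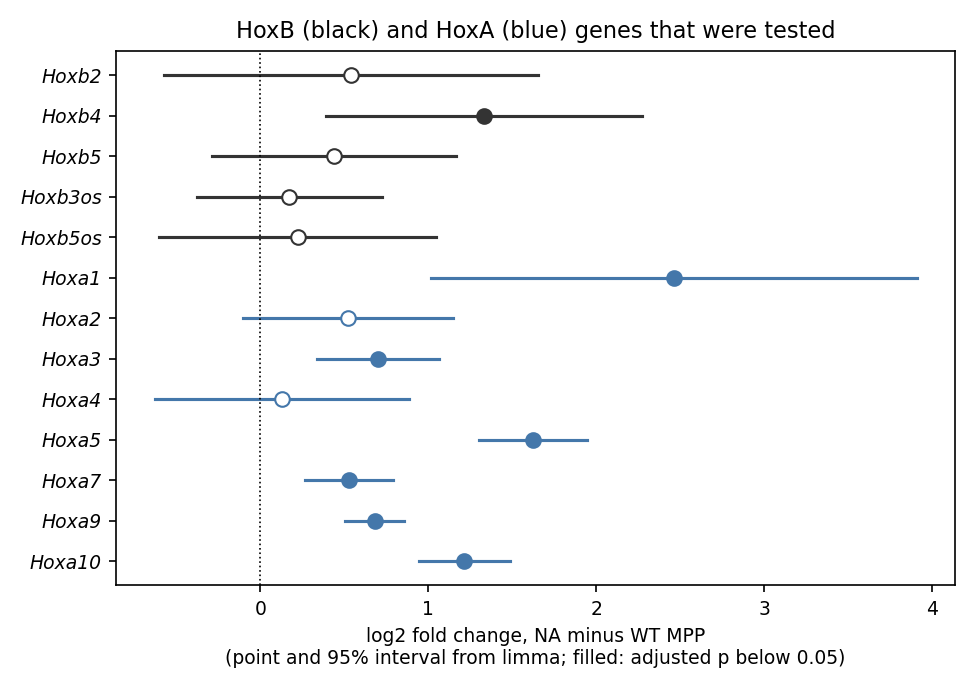
log2 fold change between NA and WT MPPs (horizontal axis, with 95% interval) of the tested HoxB genes and antisense transcripts (black) and HoxA genes (blue), where filled points have a limma adjusted p below 0.05. Hoxb4 is the filled point among the HoxB genes, at 1.33, and 6 of the 8 HoxA points are filled. Over all tested genes 17.9% passed in either direction.

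Whether a HoxB gene and its HoxA paralogue changed by different amounts was tested on their log2 ratio within each library, on which the scaling of a library has little bearing. The test was an exact two-sided permutation test over the 70 assignments of libraries, which cannot give a p below 0.0286, with adjustment over 3 pairs. For Hoxb4 against Hoxa4 the log2 ratio was 0.05, -0.24, -0.39 and -0.29 in NA1 to NA4, and -0.76, -2.61, -1.26 and -1.06 in WT1 to WT4. The mean was -0.22 ± 0.19 in NA and -1.42 ± 0.82 in WT MPPs (errors are SD, n = 4), so that the ratio was higher in NA MPPs by 1.20 (exact permutation p = 0.0286, adjusted p = 0.0429). Hoxb4 had passed the filter through its 4 NA values alone, so this pair was tested only because Hoxb4 was high in NA MPPs. The p of this pair is therefore no independent support for a higher ratio. For Hoxb5 against Hoxa5 the log2 ratio was -4.04, -4.41, -4.18 and -4.27 in NA1 to NA4, and -2.40, -3.90, -3.11 and -2.75 in WT1 to WT4. That ratio fell, with a difference of -1.19 (exact permutation p = 0.0286, adjusted p = 0.0429). In paralogue group 4 the ratio was thus higher in NA MPPs, and in group 5 it was lower. Since the group 4 pair was tested only through high NA values of Hoxb4, no contrast of the 2 pairs is drawn. For Hoxb2 against Hoxa2 the mean log2 ratio was -2.0 ± 0.83 in NA and -2.02 ± 0.68 in WT MPPs (errors are SD, n = 4), a difference of 0.02 (exact permutation p = 1.0). Without NA4 and WT4 the differences were 1.35, -1.07 and -0.02, where 3 libraries against 3 cannot give an exact p below 0.1.

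Between neighbouring tested members the same test did not pass, with adjustment over 2 pairs. The log2 ratio of Hoxb4 to Hoxb5 was -0.57 ± 0.52 in NA and -1.46 ± 0.13 in WT MPPs (errors are SD, n = 4), a difference of 0.89 (exact permutation p = 0.0571, adjusted p = 0.114). It was highest in NA1, at -0.14, while NA3, at -1.32, lay within the range of the WT libraries, from -1.57 to -1.28. The log2 ratio of Hoxb2 to Hoxb4 was -0.28 ± 0.80 in NA and 0.52 ± 0.60 in WT MPPs (errors are SD, n = 4), a difference of -0.79 (exact permutation p = 0.171, adjusted p = 0.171). A change of Hoxb4 that differs from those of Hoxb5 and Hoxb2 was therefore not shown at this depth.

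**Figure D4:**
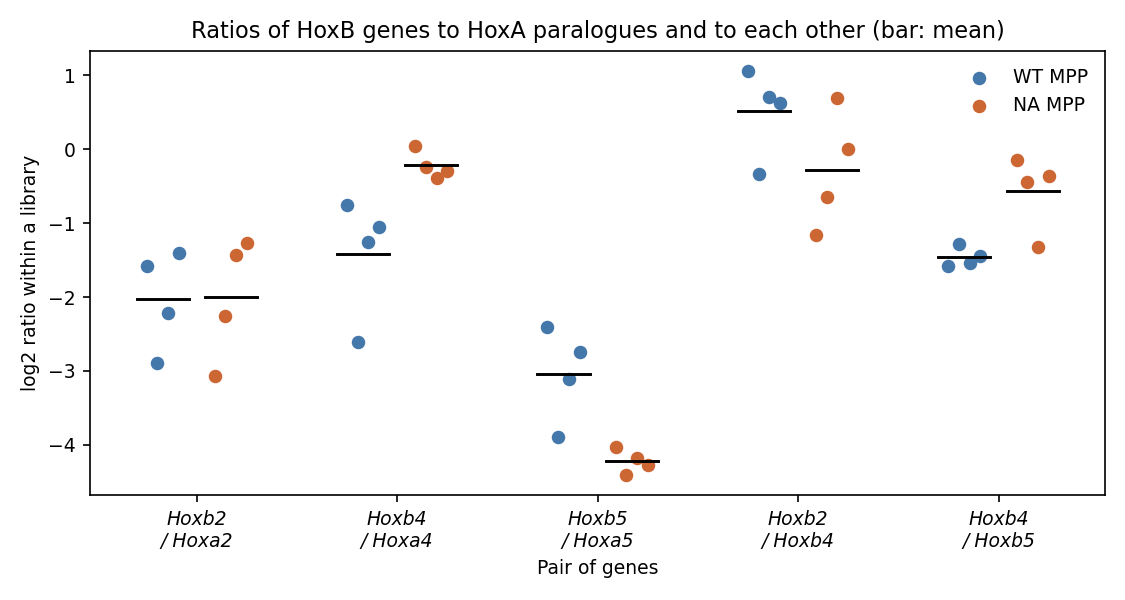
log2 ratio of normalised counts (plus 1) within each library (vertical axis) for 3 HoxB genes against their HoxA paralogues and for 2 pairs of HoxB genes (horizontal axis), with 1 point per WT (blue) and NA (orange) library and the mean as a bar. The groups separate upward for Hoxb4 against Hoxa4 and downward for Hoxb5 against Hoxa5, and overlap for the other 3 pairs. Hoxb4 had passed the filter through its 4 NA values alone.

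Of 14 tested genes known to act on Hox promoters and Hox chromatin, 4 rose and 10 did not pass the test. Their median log2 difference was 0.04, and over all tested genes 10.1% were called higher in NA MPPs. Usf1, an E-box factor known to act on the Hoxb4 promoter, had the largest change: it measured 84.9 to 131 normalised counts in NA and 0 to 20.4 in WT libraries, a log2 difference of 4.04 ± 0.71 (SE, limma adjusted p = 0.00169). Its partner Usf2 measured 460 ± 71.0 in NA and 492 ± 63.1 in WT MPPs (errors are SD, n = 4; limma adjusted p = 0.624). The other 3 that rose were Psip1, which tethers the KMT2A complex to chromatin, with a log2 difference of 0.75, Bmi1, a subunit of Polycomb repressive complex 1, with 0.64, and Kmt2a, a histone H3 methyltransferase that keeps Hox genes active, with 0.63. The NF-Y subunits Nfya, Nfyb and Nfyc did not pass (log2 differences -0.25, 0.07 and 0.27), and Cdx1, Cdx2 and Cdx4, activators of Hox genes, were at 0. Without NA4 and WT4, 3 of the 4 passed, and Bmi1 did not (limma adjusted p = 0.0569).

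Of the Hox cofactors, Meis1 measured 1391 ± 40.7 in NA and 1433 ± 61.2 in WT MPPs (errors are SD, n = 4; limma adjusted p = 0.730). Of 8 tested genes of the retinoic acid pathway, which switches on genes at the Hoxb1 side of the cluster in embryos, 3 rose. The other 5 did not pass, the median log2 difference was 0.24, and 10.1% of all tested genes were called higher in NA MPPs. The 3 that rose were Aldh1a1, which makes retinoic acid, with a log2 difference of 1.58, the receptor Rarb with 1.26 and the retinol dehydrogenase Rdh10 with 0.53. Without NA4 and WT4 Aldh1a1 alone of the 3 passed.

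Among 7 tested genes that flank the cluster, 1 fell and 6 did not pass, with a median log2 difference of -0.25. Over all tested genes 7.87% were called lower, so 1 call among 7 genes says little of this list. The one that fell was Atp5g1, a subunit of ATP synthase, with a log2 difference of -0.43 (limma adjusted p = 0.0374, and 0.241 without NA4 and WT4). The highest value of the list was that of Copz2, which lies beyond Hoxb1, at 0.25 (limma adjusted p = 0.792).

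**Figure D5:**
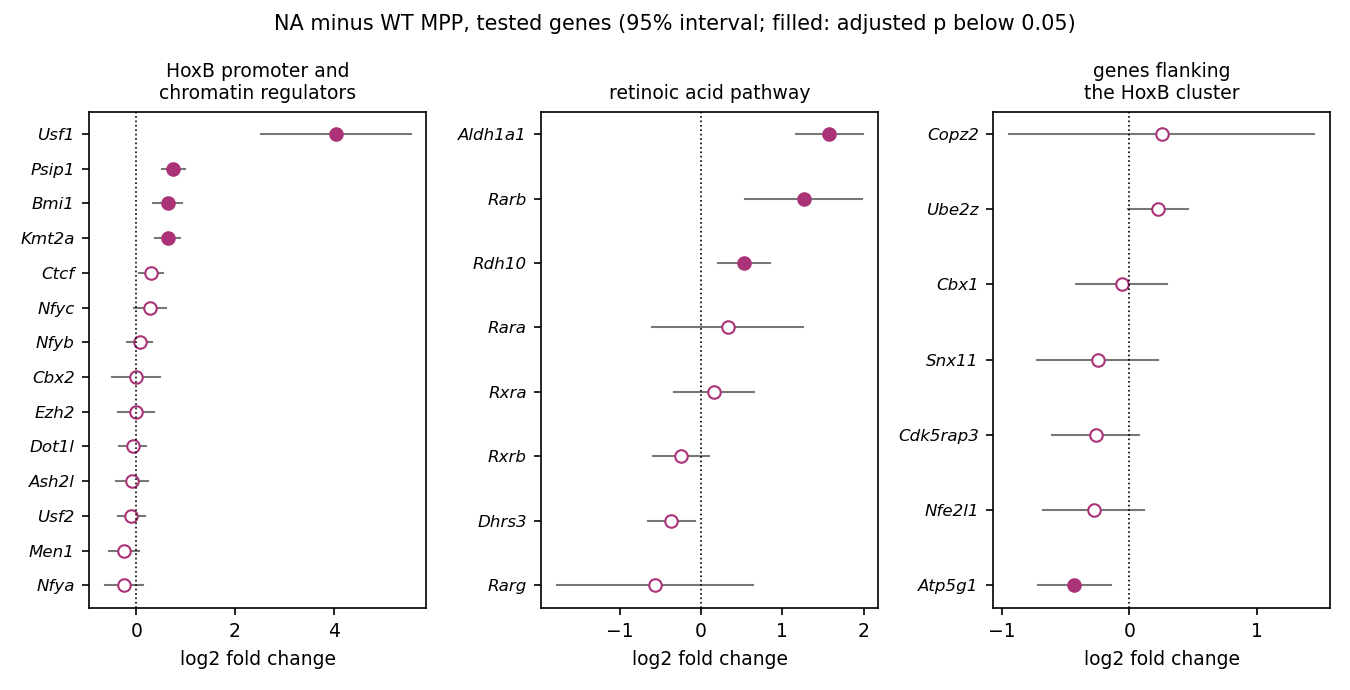
log2 fold change between NA and WT MPPs (horizontal axes, which differ in range, with 95% intervals) of the tested genes of 3 lists: Hox promoter and chromatin regulators, the retinoic acid pathway and genes that flank the HoxB cluster. Filled points have a limma adjusted p below 0.05: 4 of 14 regulators and 3 of 8 retinoic acid genes are higher, and 1 of 7 flanking genes is lower. Over all tested genes 10.1% were called higher and 7.87% lower.

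The patterns most like those of 2 members were sought among the tested genes, by the root-mean-square difference of log2(normalised count + 1) over the 8 libraries after centring. For Hoxb5, the member with the highest mean, the nearest were Xpa at 0.109, an Ensembl gene without a symbol in the annotation (ENSMUSG00000073859) at 0.144, Pkp4 at 0.153, Renbp at 0.156 and Timmdc1 at 0.157, beside a median of 0.495 over all genes. Xpa, a DNA repair factor, shared with Hoxb5 the highest value in NA3 and the lowest in WT2, at 138 and 48.7 normalised counts. For Hoxb4, the member with the largest difference, the nearest were Commd10 at 0.124, 5430403G16Rik at 0.172, Crebl2 at 0.180, Cdk2 at 0.197 and Zfp982 at 0.223, beside a median of 0.799. Commd10 was more deeply counted, at 224 to 347 normalised counts in NA and 73.6 to 125 in WT libraries. With 8 libraries and few reads for either member, these are descriptions of likeness.

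The sorted cell type was checked by its markers, and other cell types by theirs. Flt3, which encodes CD135, measured 1398 to 1498 normalised counts in NA and 1274 to 1420 in WT libraries, and Kit 1225 to 1490 and 1103 to 1350. Ly6a, which encodes Sca1, was the 1 that passed of the 4 genes of that list, which also holds Cd34, with a log2 difference of -0.28 (limma adjusted p = 0.0257, and 0.163 without NA4 and WT4). Slamf1, which encodes CD150, against which cells were sorted, was still at 3.69 to 47.9 in NA and 16.9 to 30.6 in WT libraries. As a scale for the counts of markers given here, 10.1% of all tested genes were called higher in NA MPPs and 7.87% lower. Of 12 long-term stem cell markers, many of which progenitors also express, 4 rose and 2 fell, or 2 and 1 without NA4 and WT4. Their sum was 13432 to 14035 in NA against 11361 to 11837 in WT libraries, a gap that Hlf carried: this transcription factor measured 4185 ± 259 in NA and 2198 ± 101 in WT MPPs (errors are SD, n = 4), and the other 11 genes summed to 9489 to 9570 and 9301 to 9558, which overlapped. The summed erythroid markers (1 of 8 tested, which did not pass) were 150 to 190 in NA and 250 to 312 in WT libraries. The summed granulocyte and monocyte markers (4 of 9 tested, 2 lower) were 3123 to 3364 and 3563 to 4570, with Elane at 0. Neither of the 2, Prtn3 and Mpo, which encode granule enzymes, passed without NA4 and WT4 (limma adjusted p = 0.0881 and 0.143), and without Prtn3 the sums overlapped at 1672 to 1776 and 1768 to 2310. The summed lymphoid markers (3 of 10 tested, 2 lower, also without NA4 and WT4) were 278 to 408 and 650 to 888, with Cd3e at 0. Megakaryocyte markers (4 of 5 tested, which did not pass) summed to 168 to 232 and 170 to 236. The 4 sort markers summed to 7337 to 7655 in NA and 7486 to 7891 in WT libraries. With every listed gene, the sums of the sort markers and of the megakaryocyte markers overlapped. The long-term stem cell, erythroid, granulocyte and monocyte, and lymphoid sums were apart between the groups, as Hoxb4 was. The part of these cell types in the Hoxb4 difference was not tested. In RNA from 1000 pooled cells, more cells with Hoxb4 transcripts and more Hoxb4 transcripts per cell cannot be told apart.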

How the data were processed

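RNA of sorted MPPs was measured in 8 libraries, 4 of NA and 4 of WT mice, which were grouped by their titles. Per the submitters' processing notes, the authors used bcl2fastq, RSEM, DESeq2 and the mm10 build. Versions, annotation, filters and strand use are not given in the sources used here. The deposited table, named as raw counts, holds a normalised signal, since each library's low values were whole multiples of 1 step (98.2% to 98.8% of them within 0.02 of a read). Dividing by the step gave estimated reads, which were used only for depth and floors. The cDNA was amplified and carried no molecular identifiers, so reads are not independent molecules and limits from 0 reads hold for counting error alone. The unit differs from raw counts, so no count model was run here. Symbols came from GENCODE M21 and matched 93.8% of the rows above 0.

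NA and WT MPPs were compared on log2(normalised count + 1), by limma 3.58.1 (R 4.3.3) with a variance trend and no covariate. A fold change on that scale understates the change of low genes. On simulated data the fit called 58% of 2-fold and 89% of 4-fold changes, and 4.55% of its calls were false. The changed genes were drawn from all tested genes, with noise independent between libraries. These rates need not hold for genes as low as the HoxB members. Ratios within a library were tested by exact permutation in Python 3.11.15. Alternatives changed the pseudocount, filter, scaling, variance trend, block, depth class and libraries used.

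The members and lists were chosen with earlier results of these data known. Named were all members, the other transcripts of the cluster, the HoxA paralogues, the parts of the fusion, sex-linked checks, the extremes of each list and markers at 0. Likeness took the 5 genes of smallest difference for 2 members. List members that passed the test, Usf2, Nfya, Nfyb, Nfyc, Meis1, Flt3, Kit and Slamf1 were named after their values were seen. Results for some list members are not reported here.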

Additional observations from a re-analysis of the deposited data

Results flagged for a closer look

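Values of the members, of the antisense transcripts and HoxA genes and of the libraries were searched for a library far from the other 3 of its group, by Dixon's 95% critical value. Of 42 groups of 4 values, 3 held such a library. The chance figure of about 2.1 does not hold for groups made up mostly of 0 values. A group with 1 library above 0, as Hoxb1 in WT MPPs, was bound to be flagged.

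Hoxb5 measured 12.5 normalised counts in WT2, while the other 3 WT libraries lay between 25.0 and 25.7. WT2 also had the lowest Hoxb2, Hoxb4 and Hoxb6 values of the WT group. Hoxb1 measured 2.28 normalised counts in WT3 and 0 in the other 3 WT libraries, a value of 2 reads. The estimated reads were 3887847 in NA4 and 4909391 to 4916987 in the other 3 NA libraries, and a fit with depth class as a covariate gave a Hoxb4 difference of 1.28 (limma adjusted p = 0.0953).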

How the results depend on the processing

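The Hoxb4 difference (1.33) stayed above 0 in all 19 alternatives, from 1.01 to 1.49, and its limma adjusted p ranged from 0.0119 to 0.241. It passed the threshold in 3: with a pseudocount of 5, without the variance trend and without NA3. It did not pass with a pseudocount of 0.5 (1.39), without a filter on low values (1.33), with a filter on a mean of at least 10 that was added after seeing the data (1.33), with TMM (1.33), upper-quartile (1.32) or total-count scaling (1.27), with depth class as a covariate (1.28) or without NA4 and WT4 (1.41). Leaving out 1 library at a time gave 1.14 to 1.49. Hoxb2 (0.07 to 0.77) and Hoxb5 (0.19 to 0.58) kept their direction and did not pass in any of 19 alternatives. The cause of these shifts was not tested.

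Same-numbered NA and WT libraries had residual correlations of 0.087, 0.027, 0.013 and 0.158 over 11451 genes and not every library correlated best with its own number, so they share only a number. With the replicate number as a block, 2004 genes were called in place of 2053, and Hoxb4 had a difference of 1.33 (adjusted p = 0.0711). With number pairs, the ratio of Hoxb4 to Hoxa4 differed by 1.20 and that of Hoxb5 to Hoxa5 by -1.19 (exact permutation p = 0.125 for both, the smallest that 4 pairs allow).

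Without NA4 and WT4 524 genes were called, and leaving out 1 library gave 1125 (without NA4) to 2176 calls, with 1279 without WT4. Total-count scaling moved the share of calls higher in NA MPPs from 56.1% to 41.4% and the median difference from -0.01 to -0.08. The ratio of Hoxb4 to Hoxa4 ranged from 0.81 to 1.43 when 1 library was left out, that of Hoxb5 to Hoxa5 from -1.47 to -0.97 and that of Hoxb2 to Hoxa2 from -0.27 to 0.37. Without any 1 NA library the first and second of these had an exact permutation adjusted p of 0.0857. Without NA4 and WT4 the 3 ratios differed by 1.35, -1.07 and -0.021. The Hoxb2 ratio turned to -0.10 with a pseudocount of 5, and to -0.17 without NA3, -0.23 without NA4, -0.27 without WT2 and -0.05 without WT3. The Hoxb3os difference turned to -0.0079 without NA2 (range -0.0079 to 0.34), that of Hoxb5os to -0.061 without NA4 and WT4 and that of Hoxa4 to -0.047 without WT1 (range -0.047 to 0.34). A filter on a mean of at least 50 left no member to test. The count-model alternatives were not run, since the deposited values were already divided by a factor. Depth limits all members: among the 1469 tested genes with means of 10 to 30, 6.67% were called and the median standard error was 0.46, against 0.18 over all tested genes.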
